A study of Mus musculus with 39 samples.

Results

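Microglia sorted from the striatum of mice with prenatal maternal immune activation (MIA) and the label PLX were compared after an injection of lipopolysaccharide (LPS) or of saline. The comparison takes 9 of the 39 libraries in the deposited table, chosen by their labels: the 6 libraries of MIA:PLX with LPS (MIA_PLX_LPS replicates 1 to 6) and 3 of MIA:PLX with saline (MIA_PLX_SAL replicates 2, 3 and 4). A further saline library, replicate 1, has a title that marks it for exclusion and was left out. Both groups are male mice aged 8 to 10 weeks, and both carry MIA and PLX, so neither of these differs within the comparison. LPS was given at 4500 endotoxin units per gram of body weight, and cells were taken 18 hours after either injection. The labels do not define PLX, and they name no strain, no genotype and no way in which MIA was brought about. The sort kept live cells that stained for CD11b and P2RY12 with low CD45, after tissue digestion with papain, so cells without surface P2RY12 were not collected. Striatal pieces were pooled before digestion, and the labels do not say whether a library is 1 animal.

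Microglia are the resident macrophages of the brain. LPS is handed by CD14 to the complex of Toll-like receptor 4 and MD-2 (Ly96), which signals through MyD88 to NF-kB and cytokine genes and through TRIF (Ticam1) to interferon regulatory factors and type I interferon. Type I interferon acts through a complex that holds STAT2 and IRF9 on interferon-stimulated genes, whose promoters often carry an interferon-stimulated response element. Adult microglia also run a homeostatic gene program that depends on TGF-beta and on factors such as SALL1, and that is known to be turned down when the cells react to LPS. LPS in the periphery also raises circulating glucocorticoids, which act through their own nuclear receptor.

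The LPS libraries held 1510020 to 3255516 counts and the saline libraries 2640243 to 3520500. Mitochondrial ribosomal RNA took 9.16% to 19.2% of the counts in LPS libraries and 11.5% to 13.7% in saline libraries; the means, 16.1% ± 3.8 (SD, n = 6) and 12.5% ± 1.12 (SD, n = 3), gave an exact permutation p of 0.167 (two-sided, smallest possible 0.0238), and without LPS replicate 2 the p was 0.0357, the smallest possible there. The 8 microglial markers (P2ry12, Tmem119, Siglech, Sall1, Fcrls, Cx3cr1 and Olfml3 among them) were present in all 9 libraries. Levels are in CPM, which sets each count against its library total adjusted by trimmed mean (TMM) scaling. The microglial markers summed to 13900 to 14800 CPM in saline libraries and 4410 to 6120 CPM in LPS libraries. In bulk RNA, fewer cells of a type and less RNA per cell cannot be told apart.

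LPS replicate 2 stood apart from the other 5 LPS libraries. Its mean log2 CPM over 22 inflammatory cytokine and mediator genes was 3.55, against 5.48 to 6.73 in the other 5 and 2.49 to 3.05 in saline libraries. Over 25 immediate early and dissociation stress genes, which papain digestion is known to raise, it was at 5.0 against 6.97 to 8.42 in the other 5 and 6.96 to 7.98 in saline libraries. Over 39 interferon-stimulated genes it was at 5.12, inside the 4.25 to 5.41 of the other 5 and above the saline range of 2.80 to 3.07. Among these lists the library is thus low in cytokine and stress genes and not in interferon genes. It was also the lowest LPS library over other lists, such as NF-kB genes (5.14 against 5.88 to 6.52) and ribosomal protein genes (7.14 against 7.84 to 8.50). Over others it was not, such as homeostatic genes (7.95 against 7.58 to 8.06). The part of sample handling in this was not tested. Values without LPS replicate 2 are given for the genes and lists in which it lay lowest by a wide margin and the result moved.

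**Figure D1:**
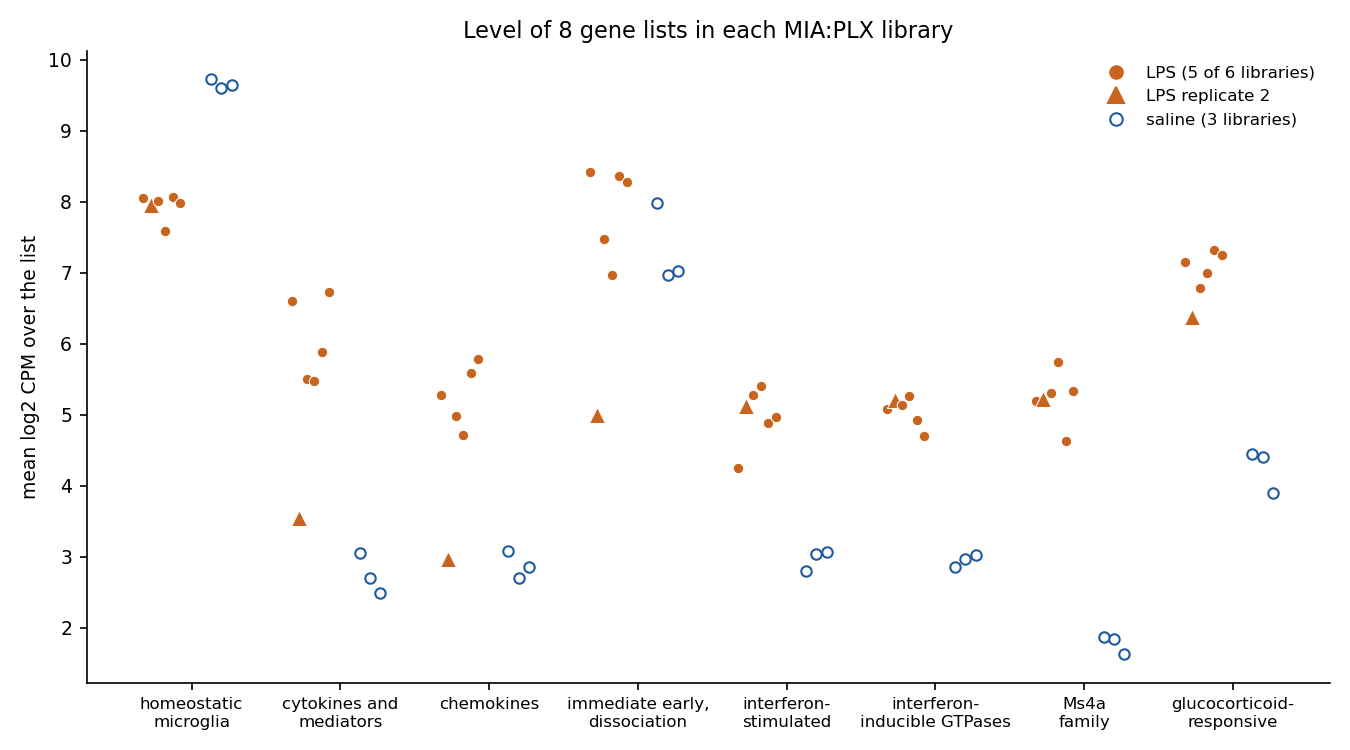
Mean log2 CPM of 8 gene lists in each of the 9 libraries; each point is a library, filled for LPS and open for saline, and LPS replicate 2 is drawn as a triangle. The triangle lies at 3.55 for cytokines and 5.0 for immediate early genes, below the other 5 LPS libraries, and at 5.12 for interferon-stimulated genes, among them.

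Of 13420 genes tested by edgeR's quasi-likelihood method, 1589 (11.8%) were higher and 1401 (10.4%) lower after LPS at an adjusted p under 0.05; these genes are called below. Over all genes tested the median log2 change was 0.04. It was 1.34 among genes called higher and -1.30 among genes called lower. A change of more than 4-fold was seen in 477 called genes that rose and 336 that fell. Every LPS library lay above every saline library in 1246 of the genes called higher, and below in 1254 of those called lower. Over all genes tested, called or not, 12.1% lay wholly above and 13.3% wholly below. Scaling by library totals alone moved the median of all genes to -0.10 and the split to 1114 higher and 1603 lower, so that 41.0% of called genes were higher in place of 53.1%. Leaving out a saline library, of which there are 3, lowered the counts to between 986 and 1012 higher and 991 to 1028 lower. Unless a library is named beside it, a gene described as having risen or fallen was called without each of the 9 libraries in turn.

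The genes that rose most at a mean level of at least 4 on the log2 CPM scale were receptors, matrix proteins and stress-hormone targets. Il1r2, the decoy receptor that traps interleukin-1, lay at 63.1 to 390.3 CPM over the 6 LPS libraries (median 303) and at 0, 1.07 and 0 CPM in the 3 saline libraries, in the order replicate 2, 3 and 4, which is kept throughout. No library of the 2 groups overlapped, and with 4022 counts over the LPS group against 3 over saline the ratio of counts per library total was 868 (95% interval 297 to 4213) (edgeR adjusted p = 4.05e-06). Msr1, the class A scavenger receptor, was at 379 to 883 CPM (median 515) after LPS and at 2.80, 4.29 and 1.88 CPM after saline. The lowest LPS library was far above the highest saline library, with a log2 change of 7.58 ± 0.60 (SE; edgeR adjusted p = 9.53e-11). Cd300lf, a receptor for lipids on dying cells, was at 151 to 413 CPM (median 342) against 2.80, 1.79 and 0.938 CPM, again without overlap (log2 change 7.31 ± 0.66, edgeR adjusted p = 1.44e-09).

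Secreted and surface proteins were also among the genes that rose most. Spp1, osteopontin, was at 56.5 to 258 CPM (median 149) after LPS and 0, 0.715 and 1.56 CPM after saline (log2 change 7.65 ± 0.92, edgeR adjusted p = 4.02e-07). Fn1, fibronectin, was at 102 to 292 CPM (median 145) and 2.24, 0.715 and 1.25 CPM (log2 change 6.72 ± 1.09, edgeR adjusted p = 3.38e-05). In neither gene did an LPS library reach down to a saline library, though Spp1 ranged more than 4-fold within the LPS group. Plet1 (log2 change 7.83), Il18rap, a chain of the interleukin-18 receptor (6.71), and Cd244a, a receptor of the SLAM family (6.37), also rose with no overlap; their saline libraries held 4, 8 and 13 counts in all, so the sizes of these changes are loose.

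Among marker genes of other cells, 6 of the 8 tested monocyte markers rose and 1, Ccr2, fell. The 10 monocyte markers summed to 155 to 599 CPM (median 364) in LPS libraries and 46.5 to 140 CPM in saline libraries. Nr4a1, which is also an immediate early gene and was not called, and Fn1 made up most of these sums; the other 8 markers summed to 10.3 to 47.0 CPM after LPS and 6.71 to 12.5 CPM after saline. Ccr2, the chemokine receptor of classical monocytes, was at 0.518 to 2.43 CPM (median 1.40) after LPS against 5.60, 7.86 and 9.38 CPM after saline, with every LPS library lower (log2 change -2.40 ± 0.60, edgeR adjusted p = 0.00332). The count of monocyte markers called higher was 2 to 3 without any 1 of the saline libraries. The 12 neutrophil markers summed to 3.1 to 111 CPM against 0.355 to 8.72 CPM, with Ly6g and Elane at 0 in all 9 libraries. Of these, 2 of 6 tested were called higher, Cxcr2 and S100a8, and S100a8 was not called without LPS replicate 4, 5 or 6 or any 1 of the saline libraries. Siglec1 alone rose of 7 tested markers of border-associated macrophages, whose sums were 83.1 to 197 CPM against 52.7 to 75.4 CPM. Of these sums Siglec1 itself gave 38.2 to 111 CPM after LPS and 1.12 to 3.55 CPM after saline. Of 4 tested markers of endothelial and mural cells 1, Pecam1, fell (-1.5 ± 0.35, edgeR adjusted p = 0.00171), with sums of 8.43 to 33.3 CPM against 30.8 to 34.1 CPM. No marker of neurons, astrocytes or the oligodendrocyte lineage was called of 16 tested, and the lymphocyte markers did not exceed 2.18 CPM in any library, with 6 of 12 at 0. The part of other cells in the changes reported here was not tested.

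**Figure D2:**
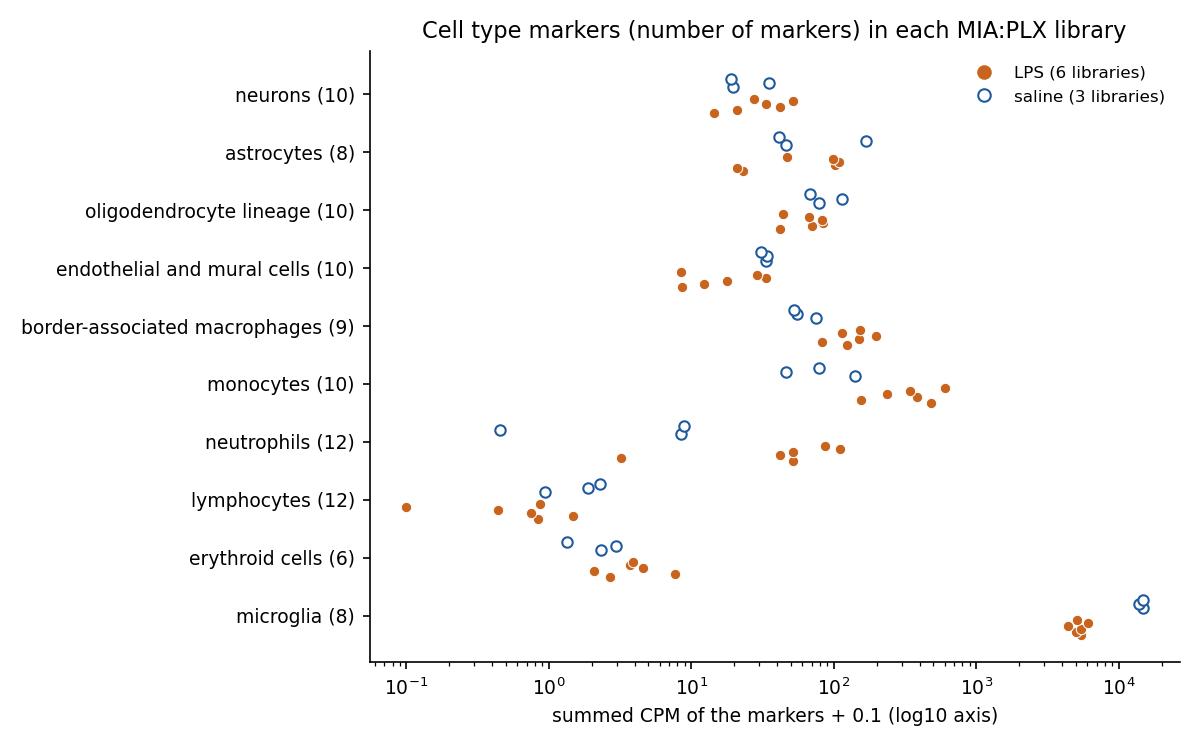
Summed CPM of the marker lists in each library on a log10 axis, with 0.1 added to each sum; filled points are LPS and open points saline libraries. Microglial markers fall from 13900 to 14800 CPM in saline to 4410 to 6120 CPM in LPS libraries, while monocyte markers reach 599 CPM in LPS replicate 6, of which markers other than Nr4a1 and Fn1 give 32.9 CPM, and lymphocyte markers stay at or below 2.18 CPM.

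Most homeostatic genes fell. Of 26 tested homeostatic genes, 20 were lower and 0 higher, with a median log2 change of -1.40 against 0.04 over all genes. P2ry12, the purinergic receptor used in the sort and the best-known microglial marker, was at 277 to 382 CPM over the 6 LPS libraries (median 308) and at 2758, 2597 and 2860.1 CPM in saline libraries. The 2 groups were far apart with little spread inside either (log2 change -3.10 ± 0.34, edgeR adjusted p = 4.57e-08). Siglech, a sialic acid receptor of microglia, was at 215 to 383 CPM (median 228) against 1056, 878 and 1168 CPM (log2 change -2.03 ± 0.25, edgeR adjusted p = 2.75e-07). Tmem119, a microglial membrane protein, was at 183 to 312 CPM (median 228) against 932, 891 and 880.4 CPM (log2 change -1.93 ± 0.44, edgeR adjusted p = 0.00164). Cx3cr1, the fractalkine receptor, was at 138 to 780.2 CPM (median 501) against 1883, 1947 and 1736 CPM; all LPS libraries were lower (log2 change -1.98 ± 0.63, edgeR adjusted p = 0.0226), but it was not called without any 1 of the saline libraries.

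Among genes without overlap at a mean log2 CPM of at least 4, the falls of largest size included less familiar microglial genes. Slc2a5, a fructose transporter, was at 3.79 to 18.1 CPM over the 6 LPS libraries (median 5.64) and at 161, 187 and 167 CPM in saline libraries (log2 change -4.52 ± 0.75, edgeR adjusted p = 4.91e-05). Gpr34, a receptor for lysophosphatidylserine, was at 15.5 to 47.6 CPM (median 33.9) against 755, 599.9 and 623 CPM (log2 change -4.32 ± 0.81, edgeR adjusted p = 0.000207). Both were without overlap, and DESeq2 gave no adjusted p for either. Gpr165, an orphan receptor, was at 3.84 to 8.49 CPM (median 5.88) against 127, 108 and 116 CPM, and its highest LPS library was below the lowest saline library more than 10-fold (log2 change -4.28 ± 0.62, edgeR adjusted p = 7.82e-06). Bank1 (-3.76), Gal3st4 (-3.48), Crybb1 (-3.19), Olfml3 (-3.14), Nav2 (-3.10) and Ebf3 (-3.0, all log2 changes) fell with no overlap as well. Csf1r, the receptor for colony-stimulating factor 1 on which microglial survival depends, was at 2744 to 3889 CPM (median 3467) against 4892, 4287 and 4822 CPM, a small difference without overlap (log2 change -0.46 ± 0.16, edgeR adjusted p = 0.0345), which was not called without LPS replicate 2 or 4 or saline replicate 2 or 4. The sort markers Itgam, which encodes CD11b (log2 change -0.09 ± 0.26, edgeR adjusted p = 0.85), and Ptprc, which encodes CD45 (0.07 ± 0.20, adjusted p = 0.841), overlapped between groups and were not called.

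**Figure D3:**
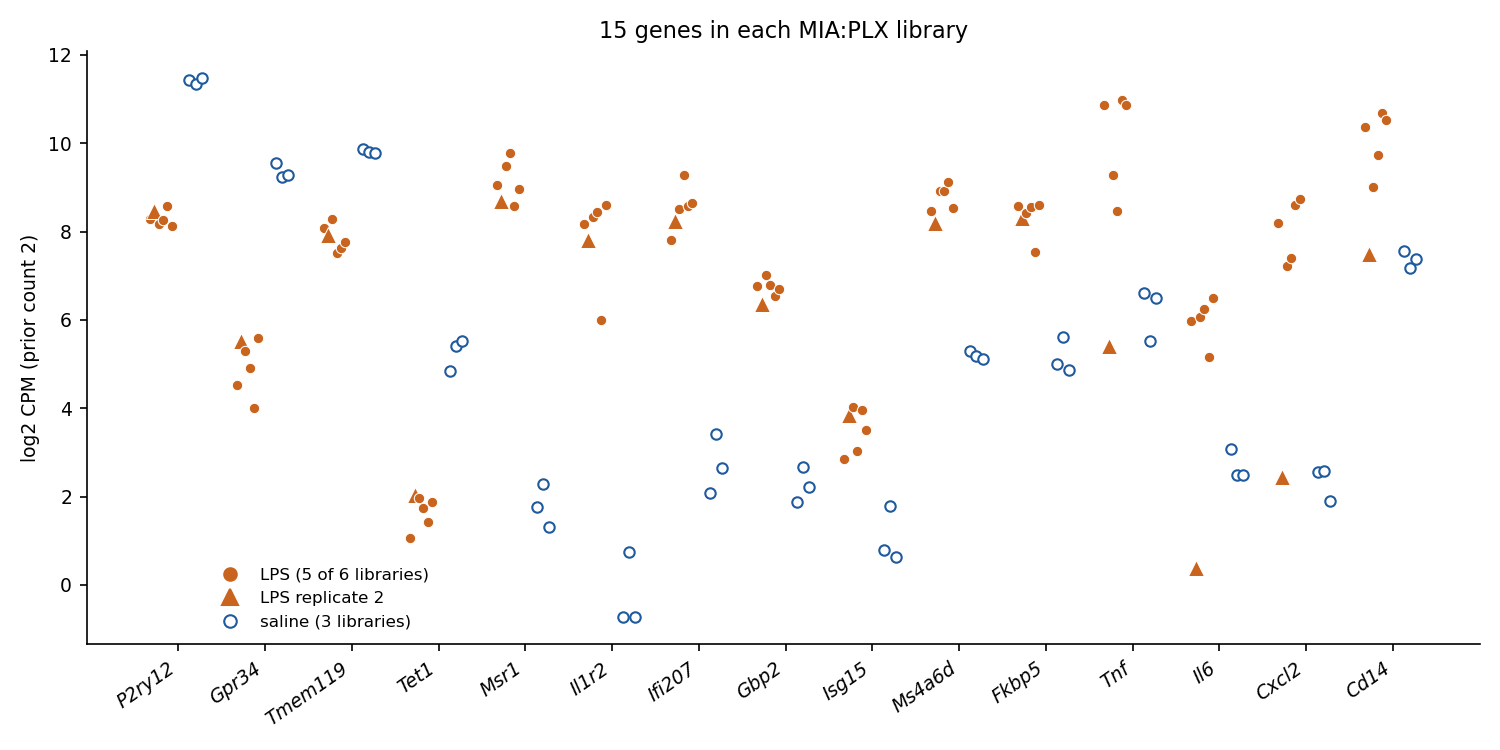
Log2 CPM (prior count 2) of 15 genes in each library, filled for LPS and open for saline, with LPS replicate 2 as a triangle. P2ry12, Gpr34 and Tet1 lie lower in every LPS library, Msr1, Il1r2, Ifi207 and Fkbp5 higher, and the triangle lies among the saline points for Cd14 and below them for Tnf and Il6.

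Transcription factors of microglial identity fell in 7 of 16 and rose in 2. Sall1, the factor that sets microglia apart from other macrophages, was at 85.9 to 361 CPM over the 6 LPS libraries (median 257) and at 1013, 947 and 953 CPM in saline libraries, without overlap (log2 change -1.98 ± 0.41, edgeR adjusted p = 0.000583). Mef2c was at 185 to 333 CPM (median 273) against 717, 685 and 667 CPM, also without overlap (-1.37 ± 0.21, adjusted p = 1.31e-05). Smad3, which carries the TGF-beta signal to the nucleus, fell (-1.34 ± 0.31, adjusted p = 0.00133). Klf4, a factor of monocyte and macrophage maturation, rose instead: its LPS libraries were at 90.6 to 244 CPM (median 215) and its saline libraries at 53.0, 75.4 and 25.9 CPM (1.98 ± 0.43, adjusted p = 0.000946). Klf2 had the largest p of the list (-0.19 ± 0.73, adjusted p = 0.887).

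TGF-beta genes fell more often than they rose. Of 14 tested, 7 were lower and 1 higher, with a median log2 change of -0.65, and the higher gene, Smad4, was not called without LPS replicate 5 or 6 or any 1 of the saline libraries. The type I receptor Tgfbr1 was at 859 to 1092 CPM over the 6 LPS libraries (median 931) and 2086, 2216 and 2035 CPM in saline libraries (log2 change -1.16 ± 0.21, edgeR adjusted p = 0.000139). The type II receptor Tgfbr2 fell by a like amount (-1.02 ± 0.25, adjusted p = 0.00251), as did the related receptor Acvr1 (-1.23 ± 0.22, adjusted p = 9.1e-05). Skil, a repressor of SMAD signalling, was at -0.10 ± 0.25 (adjusted p = 0.814).

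Genes of LPS sensing did not move together. Cd14, which binds LPS and passes it on, was at 179 to 1652 CPM over the 6 LPS libraries (median 1080.1) and 188, 144 and 165 CPM in saline libraries. LPS replicate 2 was the lowest at 179 CPM, inside the saline range, and the other 5 lay above that range (log2 change 2.59 ± 0.49, edgeR adjusted p = 0.000205, and 2.81 with adjusted p = 9.26e-06 without replicate 2). Ly96, MD-2, went the other way, at 1.55 to 13.1 CPM (median 6.94) against 25.2, 21.8 and 21.6 CPM with no overlap (-1.76 ± 0.46, adjusted p = 0.00503). Tlr4 itself was at 51.2 to 151 CPM (median 119) against 111, 138 and 109 CPM, with the groups overlapping (-0.10 ± 0.40, adjusted p = 0.898). Over the list of 20 sensing and signalling genes 5 were higher and 2 lower, with a median of 0.32; 1 to 3 were higher without any 1 of the saline libraries, 3 without LPS replicate 1 or 5, and 1 was lower without LPS replicate 1, 2 or 6 or any 1 of the saline libraries. Of these, Socs3 (1.98), a feedback inhibitor of cytokine signalling, was not called without saline replicate 3 or 4, and Irak1 (0.68) without saline replicate 3. Irak4, the kinase next to MyD88, was at 0.06 ± 0.34 (adjusted p = 0.922).

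Of 16 tested NF-kB subunits, kinases and inhibitors, 4 were higher and 0 lower (median 0.56), and the 25.0% called is near the 22.3% called in either direction over all genes; 7 were higher without LPS replicate 2, and 1 to 2 without any 1 of the saline libraries or LPS replicate 5 or 6. Bcl3, a nuclear inhibitor-family protein that works with p50 and p52, was at 28.1 to 53.3 CPM over the 6 LPS libraries (median 37.9) and 4.48, 3.22 and 2.81 CPM in saline libraries with no overlap (log2 change 3.47 ± 0.48, edgeR adjusted p = 2.66e-06). Nfkbia, the inhibitor IkB-alpha, changed by 1.19 ± 0.42 (adjusted p = 0.0374) and Nfkbib by 1.21 ± 0.37 (adjusted p = 0.0167); Nfkbia was not called without LPS replicate 1, 5 or 6 or any 1 of the saline libraries, and Nfkbib without saline replicate 3 or 4. Ikbkg was at 0.02 ± 0.24 (adjusted p = 0.962).

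Most cytokines and mediators rose, with a wide spread among the LPS libraries. Of 22 tested, 15 were higher and 0 lower, with a median log2 change of 3.93, or 3.52 with the genes that had no saline count at their lower bound. The count was 17 without LPS replicate 2 (median 4.19), 9 without saline replicate 4 and 8 in a fit to the 2 groups alone. Tnf was at 1875, 41.6, 626, 352, 2007 and 1876 CPM in LPS replicates 1 to 6 and at 96.9, 45.0 and 89.7 CPM in saline libraries. Replicate 2 was below every saline library and the other 5 were above them all, by more than 3-fold at the least (log2 change 3.87 ± 0.90, edgeR adjusted p = 0.00212), and the gene was not called in the fit to the 2 groups alone. Without replicate 2 the change of Tnf was 4.12 (adjusted p = 0.00023). Il6 was at 62.7, 0.694, 66.3, 74.8, 35.2 and 89.9 CPM against 7.84, 5.0 and 5.0 CPM, with the same library low (3.18 ± 0.88, adjusted p = 0.00834, not called in that fit, and 3.44 with adjusted p = 0.000876 without replicate 2). Il1b was at 1889.8, 8.68, 315, 196, 463 and 1799.5 CPM against 129.7, 18.2 and 62.5 CPM; replicate 2 was again lowest, and the gene was not called with it (3.46 ± 1.37, adjusted p = 0.0675) but was called without it (3.73, adjusted p = 0.0352).

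Osm, an interleukin-6 family cytokine (3.99), and Tnfsf9, the ligand of 4-1BB (4.39), rose with LPS replicate 2 at 5.55 and 2.08 CPM, within or below the saline range, and neither was called in the fit to the 2 groups alone. Ptgs2, cyclooxygenase-2, was at 0 CPM in replicate 2 and at 30.3 to 375 CPM in the other 5, against 12.6, 5.72 and 4.06 CPM in saline libraries; it was called (log2 change 4.52 ± 1.47, edgeR adjusted p = 0.0261) but not without any 1 of the saline libraries. Tnfaip3, the A20 inhibitor of NF-kB, followed the same order (1.86 ± 0.66, adjusted p = 0.041) and was not called without LPS replicate 1, 5 or 6 or any 1 of the saline libraries.

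In acute-phase proteins LPS replicate 2 was again the lowest LPS library but lay above saline. Lcn2, lipocalin-2, which binds bacterial siderophores, was at 36.4 to 172 CPM over the 6 LPS libraries (median 118) and 0.841, 3.22 and 1.56 CPM in saline libraries (log2 change 5.94 ± 1.28, edgeR adjusted p = 0.000954). Saa3, serum amyloid A3, was at 73.6 to 329 CPM (median 243) against 0.28, 8.22 and 0 CPM (6.37 ± 1.17, adjusted p = 0.000213). Neither gene overlapped between groups. Il18 had the largest p of the list (0.26 ± 0.35, adjusted p = 0.649).

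In chemokines LPS replicate 2 again lay low, at a mean log2 CPM of 2.97 over the list against 4.71 to 5.78 in the other 5 and 2.70 to 3.08 in saline libraries. Of 15 tested, 6 were higher and 1, Ccl6, lower, with a median of 2.58; 9 were higher without replicate 2 (median 2.84), and DESeq2 and limma voom with quality weights each called 10 higher. Ccl5 was at 21.5 to 78.4 CPM over the 6 LPS libraries (median 62.4) and at 0.28, 0.357 and 0.938 CPM in saline libraries, with no overlap (log2 change 6.72 ± 1.38, edgeR adjusted p = 0.000598). Cxcl2, a neutrophil attractant, was at 4.86 CPM in LPS replicate 2 and 147 to 429 CPM in the other 5, against 5.32, 5.36 and 3.13 CPM; only replicate 2 overlapped saline (5.68 ± 1.20, adjusted p = 0.000845, and 5.94 with adjusted p = 0.000124 without it). Cxcl16 rose with no overlap (1.87 ± 0.40, adjusted p = 0.000768). Cxcl1 had no count in any saline library and 65 over the LPS group, at least 14.0-fold higher against a floor of 3 counts over the saline group. Ccl6 was at 6.21 to 13.1 CPM (median 12) against 26.6, 29.7 and 25.6 CPM, lower in every LPS library (-1.37 ± 0.36, adjusted p = 0.00465).

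Some well-known chemokines of the LPS response were not called with all 6 LPS libraries, and Cxcl10 and Ccl4 were called without replicate 2. Ccl2, a monocyte attractant, was at 30.5 to 87.5 CPM (median 53.0) against 38.7, 14.3 and 18.4 CPM (log2 change 1.29 ± 0.86, edgeR adjusted p = 0.309). Cxcl10 was at 14.9 CPM in LPS replicate 2 and 65.8 to 109.9 CPM in the other 5, against 17.4, 17.1 and 25.0 CPM (2.06 ± 0.85, adjusted p = 0.0811), and without replicate 2 its change was 2.28 (adjusted p = 0.0457). Ccl4 was at 1.04 CPM in replicate 2 and 71.0 to 781 CPM in the other 5, against 104, 25.4 and 39.4 CPM (2.58 ± 1.10, adjusted p = 0.091), and without replicate 2 its change was 2.84 (adjusted p = 0.0297). Ccl3 passed (2.84 ± 1.02, adjusted p = 0.0432) and was lost without LPS replicate 1, 5 or 6 or any 1 of the saline libraries.

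Promoters of Cxcl1 and Cxcl2 are shown because both genes rose and both hold a pair of NF-kB-type motifs (GGGNNTTTCC or its reverse complement GGAAANNCCC), in capitals, within the 100 bases before the start. Sequences are from RefSeq (GRCm38.p6) and read 5′ to 3′ on the gene's strand; Cxcl1 is chr5:90891145-90891244 and Cxcl2 chr5:90903799-90903898, both plus strand.
Cxcl1: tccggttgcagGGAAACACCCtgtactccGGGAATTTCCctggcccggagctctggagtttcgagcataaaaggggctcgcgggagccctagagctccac
Cxcl2: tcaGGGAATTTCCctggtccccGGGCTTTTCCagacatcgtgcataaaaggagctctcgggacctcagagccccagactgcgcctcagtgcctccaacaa
In the 250 bases before the start this motif was found, on either strand, for 4 of the 14 chemokine genes with a promoter in the table and 3 of 12 NF-kB genes, against 1.65% of all 27025 genes there and 5.36% of the 336 genes called higher by more than 4-fold. A match is a run of letters and not a measured binding site.

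Interferon-stimulated genes rose, and their mean level was higher in every LPS library, replicate 2 included, than in any saline library. Of 39 tested, 32 were higher and 0 lower, with a median log2 change of 2.18, and the LPS libraries lay above all saline libraries for 30. Stat2, a part of the interferon-activated complex, was at 144 to 287 CPM over the 6 LPS libraries (median 202) and at 35.9, 30.4 and 24.7 CPM in saline libraries (log2 change 2.77 ± 0.34, edgeR adjusted p = 2.89e-07). Irf7, the factor that amplifies interferon production, was at 27.3 to 38.1 CPM (median 31.5) against 1.68, 2.86 and 1.25 CPM (4.05 ± 0.51, adjusted p = 4.02e-07). Zbp1, a sensor of unusual nucleic acid helices, was at 46.6 to 149.9 CPM (median 105) against 2.24, 5.36 and 1.88 CPM (5.04 ± 0.67, adjusted p = 1.51e-06). Each was higher in all 6 LPS libraries, and replicate 2 was the highest or next to highest for all 3 genes. Slfn5 rose as well (3.90 ± 0.55, adjusted p = 4.19e-06), and Isg15, a ubiquitin-like modifier, was at 6.64 to 15.8 CPM (median 12.3) against 1.12, 2.86 and 0.938 CPM (2.83 ± 0.53, adjusted p = 0.000157). Ifit3b had the largest p (-0.34 ± 0.95, adjusted p = 0.842).

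The Ifi200 family, which includes sensors of DNA and is encoded in a cluster, rose further. Of 12 tested, 9 were higher and 0 lower, with a median of 4.24, or 3.74 with the member that had no saline count at its bound. Ifi207 was at 224 to 619.8 CPM over the 6 LPS libraries (median 374) and 3.64, 10.0 and 5.63 CPM in saline libraries (log2 change 5.91 ± 0.43, edgeR adjusted p = 1.06e-11). Ifi204 was at 212 to 431 CPM (median 376) against 12.9, 12.1 and 17.5 CPM (4.60 ± 0.40, adjusted p = 4.39e-10). Neither gene had a library out of place. These genes are close copies of each other, and the estimated counts may share reads among them, so the value of a single member is uncertain; the same holds for the Gbp, Ms4a, Bcl2a1 and H2 genes. Ifi203 was at 0.33 ± 1.18 (adjusted p = 0.881).

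Of 15 interferon-inducible GTPases, which attack vacuoles that hold microbes, 12 were higher and 0 lower (median 2.34). Gbp2 was at 81.2 to 129.7 CPM over the 6 LPS libraries (median 105) and 3.08, 5.72 and 4.06 CPM in saline libraries (log2 change 4.61 ± 0.70, edgeR adjusted p = 1.38e-05). Irgm1 was at 53.8 to 129 CPM (median 91.7) against 17.4, 17.9 and 19.7 CPM (2.34 ± 0.40, adjusted p = 4.76e-05). Both were without overlap, with the saline libraries within a narrow range. Irgm2 was at 0.25 ± 0.30 (adjusted p = 0.607).

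Promoters of 4 of these genes are shown with the interferon-stimulated response element (GAAANNGAAA or its reverse complement TTTCNNTTTC) in capitals, since the motif was most frequent in these 3 lists of all the lists examined. Each is the 100 bases before the start in RefSeq (GRCm38.p6), 5′ to 3′ on the gene's strand. Ifi207 is chr1:173741810-173741909 on the minus strand, Gbp2 chr3:142620563-142620662 on the plus strand, Irgm1 chr11:48871421-48871520 on the minus strand and Isg15 chr4:156200819-156200918 on the minus strand. Isg15 has 3 overlapping matches and Irgm1 2.
Ifi207: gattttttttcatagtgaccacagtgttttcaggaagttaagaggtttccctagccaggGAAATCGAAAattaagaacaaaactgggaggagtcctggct
Gbp2: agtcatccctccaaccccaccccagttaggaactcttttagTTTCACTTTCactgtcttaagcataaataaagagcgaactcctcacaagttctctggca
Irgm1: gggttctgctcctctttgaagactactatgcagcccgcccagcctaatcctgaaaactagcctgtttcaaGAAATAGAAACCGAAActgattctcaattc
Isg15: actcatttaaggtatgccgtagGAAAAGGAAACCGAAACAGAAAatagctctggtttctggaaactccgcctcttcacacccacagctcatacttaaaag
In the 250 bases before the start the motif was found, on either strand, for 9 of 10 GTPase genes with a promoter in the table, 9 of 12 Ifi200 genes and 13 of 30 interferon-stimulated genes. It was found for 3.46% of all 27025 genes, 11.0% of the genes called higher by more than 4-fold, 2.56% of those called lower and 0 of 19 homeostatic genes. No test was run on these shares, since the lists were drawn up with such genes in mind.

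**Figure D4:**
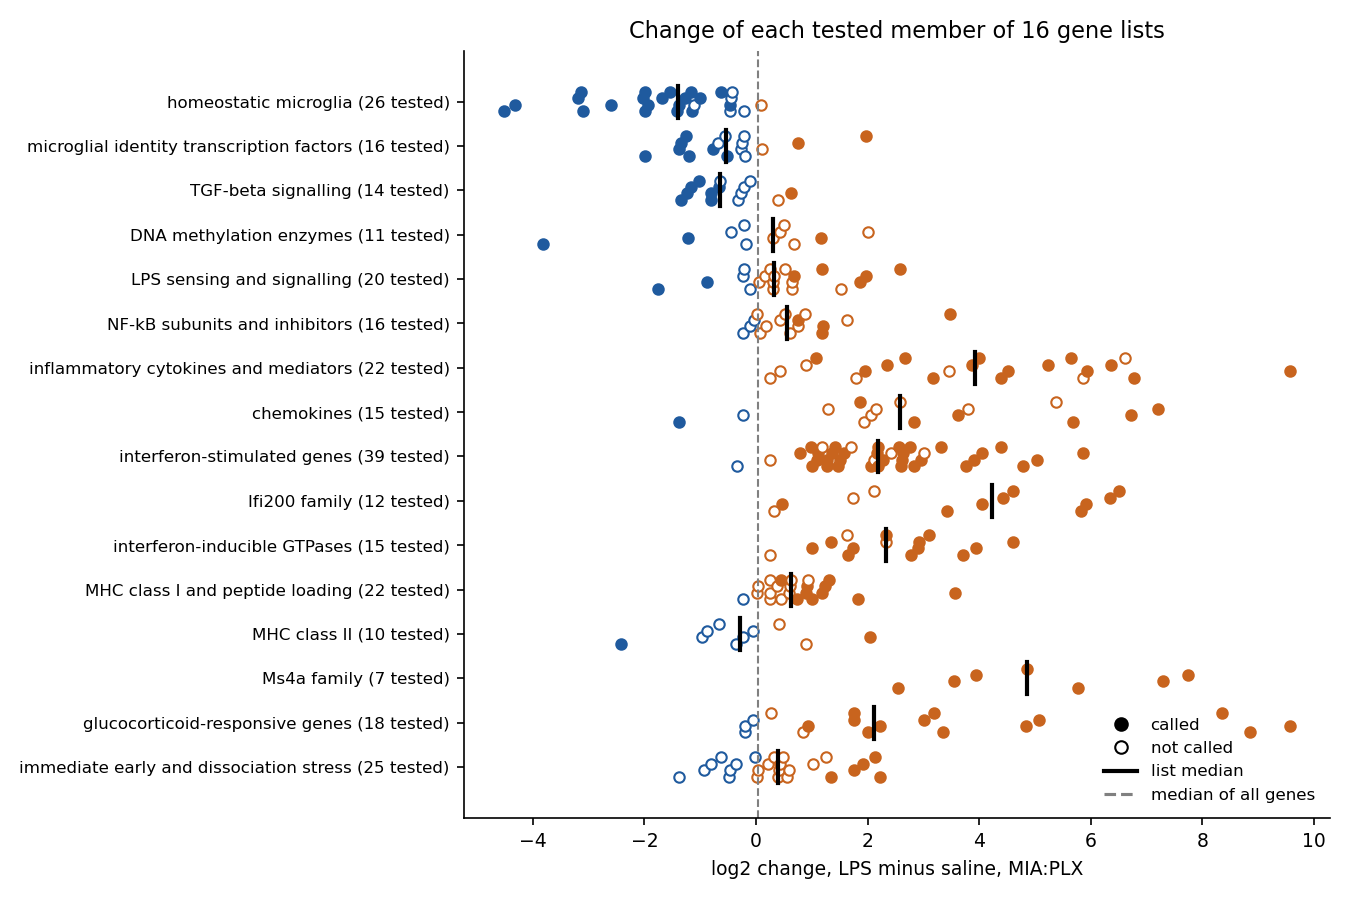
Log2 change (LPS minus saline) of each tested member of 16 gene lists, filled where called by edgeR and open where not; the bar is the list median and the dashed line the median of all genes, 0.04. Homeostatic genes lie mostly below zero (median -1.40), the 3 interferon lists above (2.18, 4.24 and 2.34) and MHC class II genes on both sides (-0.29).

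Genes of antigen presentation rose in part for class I, while class II calls were near the share of all genes. Of 22 class I and peptide loading genes, 10 were higher and 0 lower (median 0.62). B2m, the light chain of class I, was at 2298 to 5106 CPM over the 6 LPS libraries (median 4199) and 2024, 2002 and 2040.4 CPM in saline libraries, and LPS replicate 2 was the lowest but still above saline (log2 change 1.01 ± 0.19, edgeR adjusted p = 0.000169). Nlrc5, the transactivator of class I genes, was at 48.7 to 105 CPM (median 75.8) against 7.84, 5.36 and 6.25 CPM (3.56 ± 0.51, adjusted p = 4.39e-06). Tap1, a chain of the peptide transporter, rose (1.83 ± 0.29, adjusted p = 1.93e-05). Of 10 class II genes, Cd74, the invariant chain, was higher (2.04 ± 0.37, adjusted p = 0.000113) and H2-Ob lower (-2.42 ± 0.32, adjusted p = 7.93e-07), and 8 were not called, H2-Aa at -0.06 ± 0.78 (adjusted p = 0.968). Without LPS replicate 2 or saline replicate 3 the class II genes called higher were 2.

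Receptors and opsonins for uptake changed selectively. Fcgr4, an activating Fc receptor for IgG, was at 145 to 241 CPM over the 6 LPS libraries (median 185) and 4.76, 6.79 and 7.50 CPM in saline libraries, far apart (log2 change 4.90 ± 0.37, edgeR adjusted p = 1.65e-11). Fcgr3 rose by less (1.12 ± 0.17, adjusted p = 1.04e-05), and 4 of 8 Fc receptor genes were higher and 0 lower. Of 16 complement genes 6 were higher and 1 lower (3 higher without saline replicate 3, and 0 lower without saline replicate 4). C4b was at 44.0 to 147 CPM (median 87.6) against 1.40, 5.72 and 4.06 CPM (4.63 ± 0.75, adjusted p = 3.11e-05), and C5ar1, the receptor for the fragment C5a, at 502 to 1072 CPM (median 697) against 119, 98.6 and 81.3 CPM (2.88 ± 0.40, adjusted p = 2.38e-06). C1qc, a chain of the C1q complex that microglia make, was at -0.04 ± 0.26 (adjusted p = 0.943). Marco, a scavenger receptor, had no count in saline libraries and 352 over the LPS group, at least 76.0-fold higher. It was not called without any 1 of the saline libraries. Of 9 tested scavenger receptors 2 were higher, Marco and Msr1. The 22.2% called is near the 22.3% called in either direction over all genes.

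The list named for TREM and CD300 receptors, which also holds genes of other families such as Clec5a, went both ways. Of its 18 tested genes, 8 were higher and 4 lower, and genes outside the TREM and CD300 families were called in both directions. In this list 4 genes had no count in the LPS or in the saline group. Trem1, which amplifies responses to bacterial products, had no count in any saline library and 37.8 to 86.8 CPM (median 65.6) in LPS libraries, at least 203-fold higher over the group (edgeR adjusted p = 2.8e-06). Trem2, the receptor for lipids and debris, was at 79.1 to 154 CPM (median 116) against 379, 272 and 312 CPM, lower in all 6 LPS libraries (log2 change -1.42 ± 0.27, adjusted p = 0.000167). Treml2 rose (2.90 ± 0.25, adjusted p = 3.17e-10) and the inhibitory receptor Cd300a fell (-1.30 ± 0.24, adjusted p = 0.000143). Clec5a was at -0.06 ± 0.35 (adjusted p = 0.927). All 7 tested genes of the Ms4a family of membrane proteins rose, of 11 listed, and the other 4 were too low to test. Of the 7, 2 had no count in any saline library and so could only come out higher. The median log2 change was 4.85, or 4.3 with these 2 at their lower bound. Ms4a6d was at 291 to 559.5 CPM (median 426) against 38.4, 35.7 and 34.1 CPM (3.55 ± 0.33, adjusted p = 1.14e-09).

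Genes that answer to glucocorticoids formed another large block. Of 18 tested, 13 were higher and 0 lower, with a median log2 change of 2.12. Fkbp5, a chaperone partner that dampens the glucocorticoid receptor, was at 185 to 387 CPM over the 6 LPS libraries (median 359) and 31.4, 48.2 and 28.4 CPM in saline libraries (log2 change 3.20 ± 0.42, edgeR adjusted p = 1.04e-06). Hif3a was at 73.5 to 124 CPM (median 118) against 3.92, 3.93 and 1.88 CPM (5.07 ± 0.80, adjusted p = 2.41e-05). Klf9 was at 56.2 to 98.3 CPM (median 69.2) against 2.52, 2.86 and 2.19 CPM (4.84 ± 0.80, adjusted p = 3.94e-05). All 3 were higher in every LPS library, and replicate 2 was not apart in them. LPS replicate 5 was, as the lowest for Fkbp5 (185 CPM against 314 to 387) and Hif3a (73.5 against 104 to 124). Over the whole list replicate 2 was the lowest LPS library, at a mean log2 CPM of 6.38 against 6.79 to 7.32 in the other 5. Zbtb16 had 1596 counts after LPS and 2 after saline, a ratio per library total of 517 (95% interval 143 to 4272). Mt2, a metallothionein that metals and cytokines also induce, was at 18.0 to 510.4 CPM (median 91.5) against 0.56, 0.715 and 0 CPM (8.35 ± 2.12, adjusted p = 0.00451). Nr3c1, the receptor itself, was at -0.05 ± 0.23 (adjusted p = 0.912). Il1r2, above, is also in this list.

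Genes of disease-associated microglia, a state known from amyloid plaques, went both ways. Of 21 tested, 9 were higher and 5 lower (median 0.76), with 3 lower without LPS replicate 1, 3, 5 or 6 or saline replicate 3 or 4. Besides Spp1, Cd63, a late endosomal membrane protein, was at 197 to 658 CPM over the 6 LPS libraries (median 452) and 88.5, 78.2 and 80.6 CPM in saline libraries with no overlap (log2 change 2.48 ± 0.28, edgeR adjusted p = 4.57e-08), and Ctsl, a lysosomal protease, rose (1.54 ± 0.25, adjusted p = 1.78e-05). Trem2 was among the 5 that fell. Tyrobp, its signalling partner, was at 0.13 ± 0.31 (adjusted p = 0.809). For the clearance of dying cells, the receptor Axl was at 24.4 to 72.2 CPM (median 36.1) against 17.4, 10.7 and 15.9 CPM (1.56 ± 0.35, adjusted p = 0.000976), and its ligand Gas6 at 12.4 to 28.0 CPM (median 17.9) against 77.9, 90.7 and 85.6 CPM. The pair moved in opposite directions without overlap; Gas6 (-2.11 ± 0.65, adjusted p = 0.0185) was not called without saline replicate 3. Of 9 tested genes for such clearance 1 was higher and 3 lower, or 1 lower without saline replicate 3.

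Lysosomal genes were likewise mixed, with 7 of 22 higher and 4 lower, or 3 higher without saline replicate 2 or 3. Cst7, cystatin F, an inhibitor of cathepsins, was at 6.25 to 19.98 CPM over the 6 LPS libraries (median 8.21) and 1.12, 1.07 and 2.50 CPM in saline libraries (log2 change 2.75 ± 0.56, edgeR adjusted p = 0.000373). Hexa, a subunit of beta-hexosaminidase, was at 34.8 to 111 CPM (median 70.0) against 209.6, 190.4 and 181 CPM (-1.41 ± 0.25, adjusted p = 6.6e-05). Cst7 was higher, and Hexa lower, in all 6 LPS libraries. Lamp2 was at 0.06 ± 0.16 (adjusted p = 0.838). Of 11 genes known from macrophages that engraft the brain, 6 were higher and 0 lower, or 3 higher without saline replicate 4, with Cd38, an NAD-consuming enzyme (3.13), not called without that library.

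Metabolic genes rose in part. Of 19 glycolytic genes 6 were higher and 1 lower (median 0.39). Pfkfb3, which makes the activator of phosphofructokinase, was at 436 to 1518 CPM over the 6 LPS libraries (median 987) and 128, 97.2 and 117 CPM in saline libraries (log2 change 3.11 ± 0.61, edgeR adjusted p = 0.000298), and Slc2a1, the glucose transporter GLUT1, rose (1.25 ± 0.23, adjusted p = 0.000125). Of 24 nuclear genes of the respiratory chain 7 were higher and 0 lower, but 1 to 3 without LPS replicate 3 or 6 or any 1 of the saline libraries. Among 25 cholesterol genes 8 were higher and 0 lower, 5 without any 1 of the saline libraries. The shares called in either direction were 36.8% of glycolytic, 29.2% of respiratory chain and 32.0% of cholesterol genes, against 22.3% over all genes.

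Cytosolic ribosomal protein genes were lowest in LPS replicate 2. Of 38 tested, 12 were higher and 0 lower (median 0.61), 22 were higher without LPS replicate 2, and 6 and 7 without saline replicates 3 and 4. The mean log2 CPM of the list was 7.14 in LPS replicate 2, 7.84 to 8.50 in the other 5 and 7.35 to 7.55 in saline libraries. Rpsa was at 158 to 442 CPM over the 6 LPS libraries (median 328) and 108, 94.7 and 98.1 CPM in saline libraries (1.66 ± 0.35, edgeR adjusted p = 0.000601), with replicate 2 the lowest LPS library and above saline.

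Iron genes went both ways. Fth1, the ferritin heavy chain, was at 871 to 3378 CPM over the 6 LPS libraries (median 2476) and 592, 498 and 507 CPM in saline libraries (log2 change 2.15 ± 0.41, edgeR adjusted p = 0.000174), and the metal importer Slc39a14 at 103 to 169.8 CPM (median 133) against 16.8, 20.7 and 18.4 CPM (2.87 ± 0.51, adjusted p = 9.16e-05). Slc40a1, ferroportin, the exporter of iron, was at 33.2 to 58.7 CPM (median 51.2) against 159, 137 and 137 CPM, lower in every LPS library (-1.56 ± 0.44, adjusted p = 0.0103). In all 4 of 14 iron genes were higher, Lcn2 among them, and 1 lower. Of 21 genes of the NADPH oxidase and of oxidant defence, 9 were higher and 0 lower (4 without saline replicate 3 or 4). Cybb, the oxidase's catalytic subunit, was at 49.2 to 152 CPM (median 83.4) against 11.8, 8.22 and 8.44 CPM (3.21 ± 0.55, adjusted p = 5.76e-05), and Txnrd1, thioredoxin reductase, rose (2.12 ± 0.40, adjusted p = 0.000158). Slc7a11, the cystine importer, was at 11.8 to 52.4 CPM (median 43.8) against 2.24, 3.93 and 2.19 CPM; the libraries did not overlap, yet the gene was not called (3.82 ± 1.76, adjusted p = 0.121).

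Genes of survival and death rose more often than they fell, with 11 of 22 higher and 1 lower (median 0.74). The list holds genes that promote cell death and genes that prevent it, and members of both kinds were called higher. Bcl2a1a, an inhibitor of apoptosis, was at 41.0 to 176 CPM over the 6 LPS libraries (median 99.0) and 16.8, 7.50 and 19.1 CPM in saline libraries (log2 change 2.78 ± 0.48, edgeR adjusted p = 6.61e-05), and Mcl1, another, rose (1.10 ± 0.24, adjusted p = 0.000964). The lower gene was Casp8, the caspase that starts death-receptor apoptosis, at 67.8 to 111 CPM (median 91.0) against 149.6, 164 and 164 CPM (-0.79 ± 0.20, adjusted p = 0.00349). Of 15 inflammasome genes 5 were higher and 2 lower (2 to 3 higher without LPS replicate 5 or saline replicate 3 or 4, and 1 lower without saline replicate 4), with Nlrp3, the sensor, at 2.02 ± 0.46 (adjusted p = 0.00135). In the cell cycle list of 16, 3 were higher and 1 lower. The 25.0% called there is near the 22.3% called in either direction over all genes. Cdkn1a, the inhibitor p21, was higher, at 263 to 2154 CPM (median 869) against 92.7, 95 and 97.8 CPM (3.36 ± 0.57, adjusted p = 4.82e-05). Mki67 was lower (-1.45 ± 0.46, adjusted p = 0.0197) and was not called without saline replicate 4.

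Enzymes that write and remove DNA methylation were called in 3 of 11 cases. That 27.3% is near the 22.3% called in either direction over all genes. Tet1, which oxidises methylcytosine, was at 1.48 to 3.47 CPM over the 6 LPS libraries (median 2.92) and 28.0, 42.2 and 45.0 CPM in saline libraries, a difference in every library (log2 change -3.81 ± 0.38, edgeR adjusted p = 4.07e-09). Dnmt3a, a de novo methyltransferase, was at 69.4 to 104 CPM (median 97.6) against 198, 225 and 215 CPM, without overlap (-1.21 ± 0.24, adjusted p = 0.000337). Mbd2, which binds methylated DNA, rose (1.16 ± 0.21, adjusted p = 0.0001), and the other 8 were not called. Without LPS replicate 2 or 4 the genes called higher were 2.

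Adhesion genes also changed in both directions. Of 22 tested, 9 were higher and 6 lower. Itgal, the alpha chain of LFA-1, had 394 counts after LPS and 3 after saline, a ratio per library total of 85.1 (95% interval 28.9 to 414). Npnt, nephronectin, a matrix ligand, was at 0.985 to 5.17 CPM (median 1.73) against 55.5, 55.4 and 70.3 CPM (log2 change -4.68 ± 0.60, edgeR adjusted p = 7.85e-07), and Jam2, a junctional adhesion molecule, at 11.4 to 27.4 CPM (median 18.9) against 123, 117 and 112 CPM (-2.65 ± 0.38, adjusted p = 3.97e-06). Neither overlapped. Among 23 ion channels and transporters 4 were higher and 4 lower, with the chloride cotransporter Slc12a2 at 36.8 to 61.6 CPM (median 53.0) against 221, 235 and 197 CPM (-2.08 ± 0.23, adjusted p = 2.5e-08). Csf2rb, the shared chain of the receptors for GM-CSF, interleukin-3 and interleukin-5, rose in every library (1.94 ± 0.17, adjusted p = 5.56e-10).

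Of 25 immediate early and dissociation stress genes 5 were higher and 0 lower, with a median of 0.39; the 20% called is near the 22.3% of all genes. Those 5 were Klf6, Dusp1, Fosl2, Maff and Ier3, of which Dusp1 was not called without saline replicate 3 or 4. Egr1 was at 526 to 5042 CPM (median 3349) after LPS and 4239, 2269 and 2378 CPM after saline, with LPS replicate 2 at 526 CPM (0.02 ± 0.59, edgeR adjusted p = 0.989). Of 15 genes of the unfolded protein response 3 were higher and 0 lower, and that share of 20% is also near the 22.3%.

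Whether the LPS change in MIA:PLX differed from that in another arm was tested by the difference of the 2 changes in the same fit. Against MIA:CON, the arm with MIA and without PLX (6 LPS and 4 saline libraries), 0 of 13420 genes were called (0%), and 389 had an unadjusted p under 0.05, which is 2.90% of them. Against CON:PLX, with PLX and without MIA (6 and 4 libraries), 0 were called (0%) and 393 (2.93%) were under 0.05. DESeq2 and limma voom with quality weights called 0 in both as well, with 443 and 788 genes at an unadjusted p under 0.05 against MIA:CON and 456 and 1124 against CON:PLX. For genes at a mean log2 CPM of at least 4, the median 95% interval of a difference reached 0.64 to either side against MIA:CON. Against CON:PLX it reached 0.63. These intervals are for a single gene without adjustment. Calls were adjusted over 13420 genes, so differences larger than these could also go uncalled. The 0 calls therefore do not exclude differences of that size or larger. The saline library marked for exclusion differed from MIA_CON_LPS replicate 6 by little more than counting noise (chi-square of 1.53 per degree of freedom over 11605 genes), whereas no other of the pairs compared came below 3.65. On the first principal component MIA_CON_LPS replicate 6 stood at 14.8 and the other 5 MIA:CON LPS libraries at -75.1 to -25.8; whether both libraries belong to the groups on their labels was not tested. Without MIA_CON_LPS replicate 6, 0 genes were called against MIA:CON, with 456 at an unadjusted p under 0.05 and a smallest adjusted p of 0.216.

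The changes themselves are set side by side in the same order, MIA:PLX, MIA:CON, CON:PLX and CON:CON, the last with neither. The 4 arms share no libraries. The median log2 change of the homeostatic list was -1.40, -1.0, -1.41 and -1.39. Without MIA_CON_LPS replicate 6 the MIA:CON median was -1.16. That of the interferon-stimulated list was 2.18, 2.40, 2.55 and 2.63. For cytokines it was 3.93, 3.04, 3.53 and 4.01, and for glucocorticoid-responsive genes 2.12, 1.89, 1.84 and 2.25. Without that library the MIA:CON medians of these 3 lists were 2.47, 3.21 and 1.94. None of these orders was tested. Of the genes called higher in MIA:PLX, 74.8% were called higher in MIA:CON, which is 61.2% of the MIA:CON genes, and 81.7% in CON:PLX, 55.1% of the CON:PLX genes. No gene was called in opposite directions in MIA:PLX and another arm.

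A few single genes are given as examples, and they do not stand for genes in general. P2ry12 changed by -3.10, -2.19, -3.25 and -3.08 (log2), with a difference from MIA:CON of -0.91 ± 0.48 (unadjusted p = 0.063); without MIA_CON_LPS replicate 6 its MIA:CON change was -2.90 and the difference -0.20 (unadjusted p = 0.485). Slc2a5 changed by -4.52, -2.42, -4.18 and -3.72, and its difference from MIA:CON was -2.10 ± 1.0 (unadjusted p = 0.045), or -0.85 without that library (unadjusted p = 0.326). Fkbp5 changed by 3.20, 2.14, 1.84 and 2.60, and its difference from CON:PLX was 1.36 ± 0.49 (unadjusted p = 0.009). Cxcl10 changed by 2.06, 3.26, 4.03 and 3.45, with a difference from CON:PLX of -1.98 ± 1.07 (unadjusted p = 0.074). None of these passed after adjustment over all genes.

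**Figure D5:**
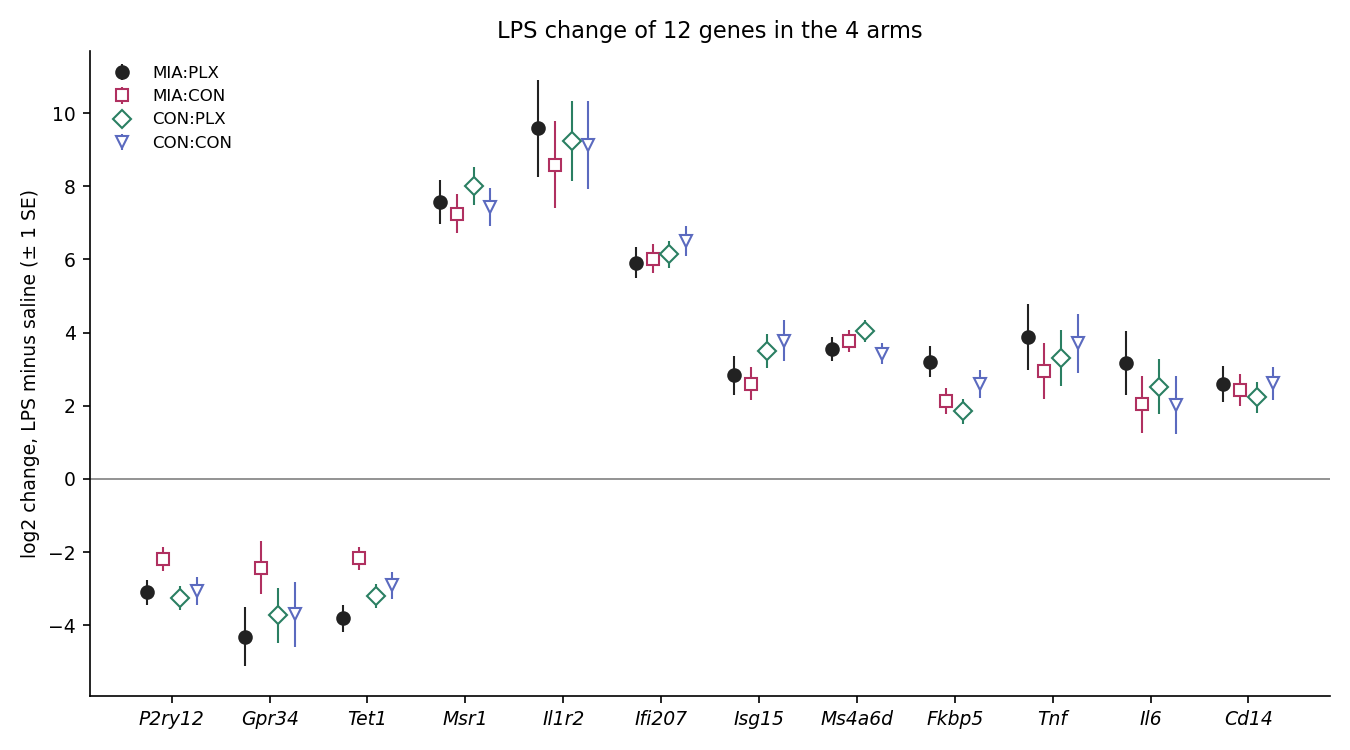
Log2 change after LPS in each of the 4 arms for 12 genes, with bars of 1 SE; MIA:PLX is the filled circle. P2ry12 lies at -3.10 in MIA:PLX and -2.19 in MIA:CON (-2.90 without MIA_CON_LPS replicate 6), and no gene's change was called different between MIA:PLX and MIA:CON or CON:PLX.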

How the data were processed

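The authors' deposited table gives unnormalized estimated counts for each gene in 39 libraries; 14.71% of its nonzero values are not whole, and counts were rounded. STAR, RSEM and DESeq2 are named in the submitters' processing notes, without versions or roles; the build and the gene models were not given in the sources used here. Per the labels' protocols, RNA was amplified linearly with Ovation RNA-Seq v2, which marks no strand, so overlapping antisense genes cannot be told apart. Symbols came from GENCODE M21 (55141 of 55487 identifiers matched).

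The 37 libraries not marked for exclusion, in 8 groups, were fitted with edgeR 4.0.16 (R 4.3.3; TMM scaling, filterByExpr with a minimum count of 10, robust quasi-likelihood test); p-values were adjusted by Benjamini-Hochberg over 13420 genes and called under 0.05. Log2 CPM uses a prior count of 2. DESeq2 1.42.0 and limma 3.58.1 voom were among the alternatives. The fit was also run on simulated data with known changes. The outcome of that run is not given here and backs no result above. Library totals of 1510020 to 3520500 counts limit low genes; intervals and floors cover counting error only. The labels do not say that libraries are separate animals, so p-values measure the spread between libraries.

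The genes and lists were chosen with earlier results of these data known. Named genes are the 10 largest changes in each direction without overlap at a mean log2 CPM of at least 4, from each list up to 4 members by smallest p and 1 by largest p, the 5 largest uncalled changes, the 8 called genes most variable over LPS libraries, the 5 most abundant genes per group and 11 set genes. Cxcl1, Dusp1, Fcrls, Isg15, Smad4, Ticam1, Ttr, Enpp2 and Acod1 lie outside this rule and were chosen after their values were seen.

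A few results on items withheld for evaluation are not reported here.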

Additional observations from a re-analysis of the deposited data

Results flagged for a closer look

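Each of 197 values of the 6 LPS libraries (the 149 genes named in the text, the mean levels of 46 gene lists, the library total and the share of counts in mitochondrial ribosomal RNA) was examined for a library whose gap to the nearest other library was past Dixon's 95% limit for 6 samples, as a share of the group's range. Of these, 23 values had such a gap, 15 of them in LPS replicate 2. For values not picked by their spread, chance alone gives such a gap in about 1 in 20 groups. Many of the genes were picked from these same data, some for a wide spread over the LPS libraries. That rate is therefore no yardstick for the 23. The values share libraries and genes, so they are not separate counts of evidence, and no cause was tested.

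In LPS replicate 2, Cxcl2 stood at 4.86 CPM against 147 to 429 in the other 5 libraries, Cxcl10 at 14.9 against 65.8 to 110, and Ccl5 at 21.5 against 53.3 to 78.4. Il6 was at 0.694 CPM (35.2 to 89.9 elsewhere), Tnfsf9 at 2.08 (84.8 to 492) and Tnfaip3 at 147 (1210 to 3300). Ier3 lay at 52.4 CPM (228 to 505), Klf4 at 90.6 (212 to 244), Slc7a11 at 11.8 (36.5 to 52.4) and S100a8 at 0.347 (10.2 to 34.2). The same library was the lowest for the mean log2 CPM of the LPS sensing list (5.54 against 6.14 to 6.32), of glycolysis and itaconate (5.64 against 6.07 to 6.32), of integrins and adhesion (5.45 against 5.83 to 6.03), of border-associated macrophage markers (1.30 against 2.57 to 3.02) and of neutrophil markers (-0.13 against 2.32 to 3.60).

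LPS replicate 5 was the lowest for Il1r2 (63.1 CPM against 222 to 390), Fkbp5 (185 against 314 to 387), Hif3a (73.5 against 104 to 124) and Cd244a (47.6 against 109 to 167). It was the highest for Fcrls (1150 CPM against 430 to 551), Siglech (383 against 215 to 245) and Pecam1 (16.6 against 4.43 to 7.29). In LPS replicate 4 the homeostatic list had a mean log2 CPM of 7.58, below the 7.95 to 8.06 of the other 5.

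The saline library whose title marks it for exclusion, MIA_PLX_SAL replicate 1, was not among the 37 libraries of the main fit. As given above, it differed from MIA_CON_LPS replicate 6 by little more than counting noise. An alternative fit with both marked libraries put back kept 91.2% of the calls. For 7 of 46 lists its mean log2 CPM was more than 1 unit above the highest of the 3 saline libraries used, when all 39 libraries were scaled together. It stood at 4.24 for cytokines (2.49 to 3.04 in the saline libraries used, 3.54 to 6.72 in the LPS libraries) and at 4.10 for chemokines (2.69 to 3.07 and 2.96 to 5.77). For interferon-stimulated genes it stood at 4.47 (2.79 to 3.06 and 4.25 to 5.41), for the Ifi200 family at 3.53 (1.28 to 1.63 and 3.67 to 4.99) and for the Ms4a family at 3.77 (1.62 to 1.87 and 4.62 to 5.74). The glucocorticoid-responsive list was at 6.18 (3.90 to 4.43 and 6.37 to 7.31), and erythroid markers were at 1.62 (-0.74 to 0.60 and -0.74 to 1.48).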

How the results depend on the processing

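Leaving out 1 library at a time from the MIA:PLX groups gave 986 to 1697 genes called higher (1589 with all) and 991 to 1437 called lower (1401 with all), and the low end came from leaving out a saline library (986 to 1012 higher and 991 to 1028 lower), where 65.5% to 65.7% of the called genes remained called. Limma voom with quality weights called 2351 higher and 2245 lower. No filter on low counts gave 1150 and 1126, DESeq2 1697 and 1615, and asking also for a change of more than 2-fold 1063 and 951. No gene was called in the opposite direction under any alternative.

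The differences of the LPS change from MIA:CON and from CON:PLX gave 0 calls under all alternatives, with an edgeR smallest adjusted p of 0.216 (MIA:CON, without MIA_CON_LPS replicate 6). The mitochondrial ribosomal RNA difference ranged from 3.01 to 5.02 percentage points as libraries were left out, with exact permutation p of 0.0357 to 0.357; 0.0357 is the smallest possible with 5 LPS libraries.

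Of the 149 named genes 122 were called, and 100 of these kept their call under every alternative that gave a value; 18 lost it without some saline library and 6 without some LPS library. The log2 change of Enpp2 ran from -5.23 to 1.17 as libraries were left out, the last without saline replicate 3 and the only change of sign of a called gene among those named. A replicate block on the shared numbers gave 1603 higher and 1370 lower, kept 91.6% of the calls and left the differences at 0 calls. The deviations of same-numbered LPS and saline libraries correlated at -0.0587, 0.143 and 0.0395. With so few such pairs these values cannot decide whether the numbers pair the libraries, and the labels do not say what a number shares. Among list counts 134 of 1786 moved by more than 1.5 times, 75 of them when a library was left out. Depth limits genes of few counts, where a saline value of 0 gives only a lower bound.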

Other observations

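A pair of called genes outside every list rested on a single saline library, and they were chosen after their values were seen. Ttr, transthyretin, which the choroid plexus makes in large amounts, was at 430.2 CPM in saline replicate 3, 2.52 and 0.313 CPM in saline replicates 2 and 4, and at most 0.689 CPM in the LPS libraries. Enpp2, autotaxin, another choroid plexus transcript, was at 97.9 CPM in the same saline library and at 1.12 and 0 CPM in saline replicates 2 and 4. Both were called lower after LPS (log2 change -9.23, edgeR adjusted p = 0.00161, and -4.54, adjusted p = 0.00541). Without saline replicate 3 neither was called, with changes of -2.66 for Ttr (adjusted p = 0.613) and 1.17 for Enpp2 (adjusted p = 0.699), and limma voom with quality weights called neither (adjusted p = 0.316 and 0.523). The source of these transcripts was not tested.

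Large changes that were not called with all libraries include that of Adamts1, a secreted metalloprotease, at 17 to 1200.3 CPM over the 6 LPS libraries (median 157) after LPS and 90.2, 17.9 and 43.8 CPM after saline (log2 change 2.58 ± 1.05, edgeR adjusted p = 0.0768). Acod1, named after its values were seen, is the enzyme that makes itaconate and had 329 counts after LPS and 2 after saline, at an edgeR adjusted p of 0.0505. Both were called without LPS replicate 2 (adjusted p = 0.0383 for Adamts1 and 0.0492 for Acod1).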
